A study of Mus musculus with 16 samples.

Results

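MHC class I antigen presentation was followed through 10 genes of the mouse that act in successive steps of the pathway, picked by their symbols. They are the heavy chains H2-K1 and H2-D1, the light chain B2m, the peptide transporter Tap1 and Tap2, the loading factor Tapbp, the transactivator Nlrc5 and the inducible proteasome subunits Psmb8, Psmb9 and Psmb10. All 10 were found among the 45777 genes listed, and all 10 had reads in each of 16 tumors. The tumors were allografts of B16F10, a melanoma cell line of the C57BL/6 mouse, grown under the skin of the flank. Lean hosts were C57BL/6J mice and obese hosts were ob/ob mice, which lack leptin, and hosts were injected with the melanoma cells at an age of 6 weeks. Tumors of both kinds of host were taken before therapy (B6_ctrl and ob_ob_ctrl) and after etoposide (B6_ETS and ob_ob_ETS), with 4 tumors in each of 4 groups. Etoposide (ETS), a topoisomerase poison that breaks DNA, was injected into the abdomen at 20 mg/kg, 5 times. The leptin mutation is in the host, so it is carried by the host cells of an obese tumor and not by the melanoma cells. The methods describe the tumors as pre- and post-chemotherapy, and the titles call the former ctrl. Neither says when the ctrl tumors were collected or whether their hosts received vehicle, so drug and time cannot be told apart.

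Class I molecules carry short peptides from the inside of a cell to its surface, where CD8 T cells and natural killer cells read them. Proteins are cut by the proteasome, whose catalytic subunits Psmb5, Psmb6 and Psmb7 are replaced by Psmb8, Psmb9 and Psmb10 when interferon gamma acts on a cell. The peptides enter the endoplasmic reticulum through the transporter made of Tap1 and Tap2, are loaded with the help of Tapbp (tapasin) and leave for the surface on a heavy chain paired with beta-2 microglobulin (B2m). Nlrc5 drives transcription of many of these genes. B16 melanoma cells are known for a low basal level of class I that interferon gamma raises.

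The RNA came from whole tumors, so a gene's reads stem from melanoma cells and host cells together, and fewer cells of a type and less RNA per cell cannot be told apart. Libraries summed to between 47199949 and 61655287 counts. Within a group, tumors correlated at 0.972 to 0.996 over the log2 CPM (counts scaled to a common library size) of all tested genes, and no pair was alike enough to be a library deposited again, with a chi-square per gene of at least 25.6. Melanocyte markers summed to 9129 TPM (the length-scaled unit of the deposited table) or more in every tumor, and all 8 had reads in each. Skeletal muscle RNA, read as at least 10 TPM of Acta1, a muscle actin, was present in 5 tumors: lean tumors 2 and 4 before therapy, lean tumors 1 and 2 after ETS and obese tumor 2 after ETS. The labels do not say whether same-group tumors came from separate rounds of injection, and p-values measure the spread between these tumors.

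The question was how these genes behaved in tumors of lean and obese hosts before and after ETS. Counts were compared with edgeR's quasi-likelihood test over the 16209 genes that had reads in every tumor, and a gene was called where its adjusted p was under 0.05. In tumors of lean hosts all 10 genes fell after ETS, where 22.8% of all tested genes fell and 21.0% rose. Without the 5 tumors with muscle RNA all 10 fell as well, where 915 of 16546 tested genes fell and 815 rose. That fit kept only lean tumors 1 and 3 before therapy and lean tumors 3 and 4 after ETS. With all tumors the changes ran from a log2 fold change of -1.89 for B2m to -4.66 for Psmb9, and the median over the 10 genes was -2.82 against -0.015 over all tested genes. In obese tumors 8 of the 10 genes rose after ETS, where 21.2% of all tested genes rose and 19.0% fell. Their median log2 fold change, including H2-K1 and Psmb9 which were not called, was 1.53 against 0.0066 over all tested genes. Without the 5 tumors with muscle RNA all 10 were called higher in obese tumors, where 2873 of 16546 tested genes rose and 1923 fell. The effect of ETS differed between hosts for all 10 genes, each with a lower value in lean tumors, where 10.1% of all tested genes differed in that direction and 6.35% in the other. Before therapy all 10 genes were lower in obese than in lean tumors, by a median log2 difference of -4.72, where 12.9% of all tested genes were lower and 13.5% higher. After ETS none of the 10 was called between hosts by edgeR, with 0 also at an unadjusted p under 0.05 and 0 by DESeq2, where 3.28% of all tested genes were higher in obese tumors and 2.30% lower. The balance of calls over all tested genes depended on the scale: on log2(TPM + 1), tested with limma, 1340 genes rose and 7272 fell in lean tumors in place of 3410 and 3689, 2540 rose and 3377 fell in obese tumors in place of 3438 and 3079, 223 and 2221 in place of 1030 and 1630 were above and below in the difference of effects, 1126 and 2778 in place of 2181 and 2099 were higher and lower in obese tumors before therapy, and 588 and 121 in place of 531 and 373 after ETS. The comparisons share tumors: the lean tumors before therapy enter the lean effect, the host difference before therapy and the difference of effects.

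**Figure D1:**
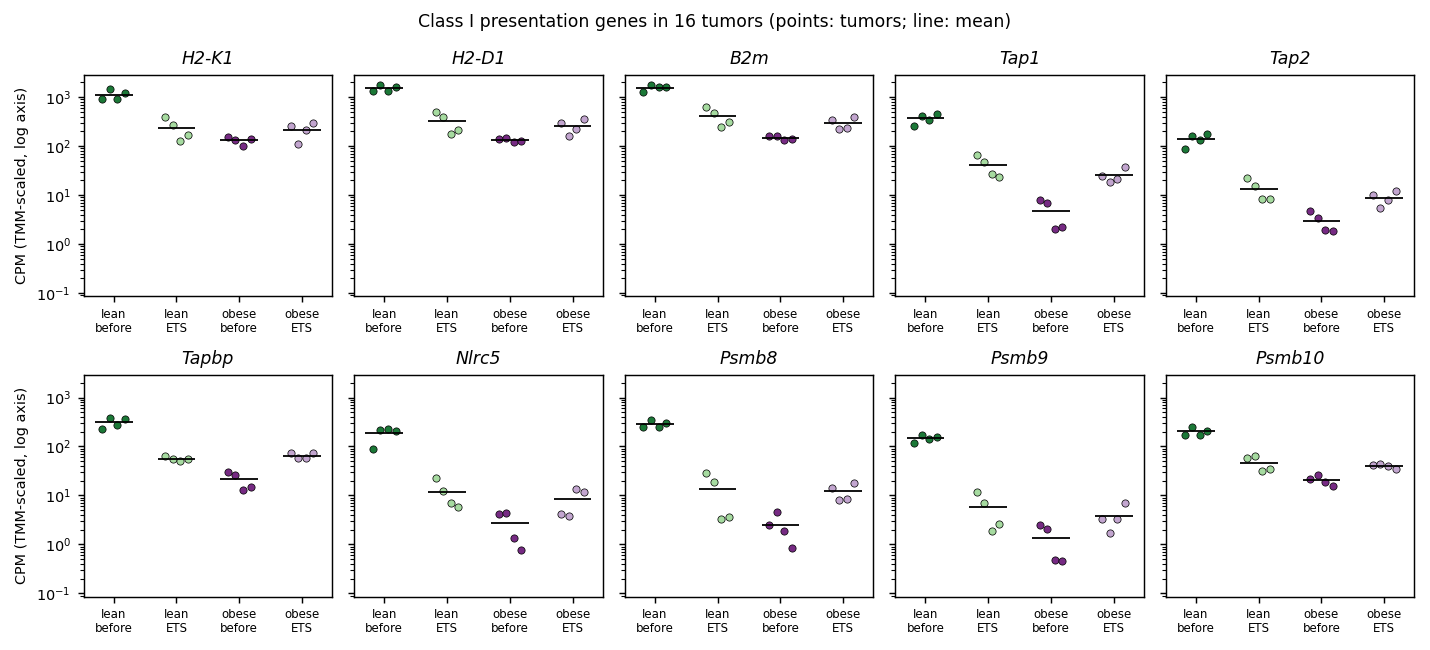
Each panel plots CPM, scaled by TMM, on a log axis for 1 of 10 class I presentation genes in 16 tumors, with 4 tumors in each group and a line at the group mean. In every panel the lean tumors before therapy sit above all other tumors, and the obese tumors before therapy are the lowest group by mean.

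H2-K1 and H2-D1 encode the classical heavy chains that hold the peptide. H2-K1 (Entrez 14972) lies on the minus strand of chromosome 17 at 33996012 to 34000619 and H2-D1 (Entrez 14964) on the plus strand at 35263094 to 35267497, and B2m (Entrez 12010), the light chain shared by all class I heavy chains, lies on chromosome 2 at 122147687 to 122153082 (GRCm38.p6, the build that mm10 is based on). Of the windows of a read's length in their transcripts, 0.905% for H2-K1 and 3.55% for H2-D1 also occurred in transcripts of other class I genes, so a part of their reads could be assigned to a relative. Their start sites are shown because both heavy chains moved together. In capitals are matches on either strand to GGGATTCCC (a kappa B site), GAANNGAAA (an element bound by interferon regulatory factors), TGACG (part of a cyclic AMP response element, letters also found in the X2 box of class I promoters) and CCAAT, none of which overlapped. The letters TTCNNNGAA (a gamma-activated site) were searched for as well and were in none of the 3 windows shown first. The windows run from 250 bases before to 50 bases after the start site and were read from RefSeq (GRCm38.p6) as chr17:34000298-34000597 on the minus strand for H2-K1, chr17:35262844-35263143 on the plus strand for H2-D1 and chr2:122147437-122147736 on the plus strand for B2m. For H2-K1 another window, chr17:34000284-34000583, is not shown. Both H2-K1 windows lie inside the gene span given above, so the start sites used are not its outer end.
H2-K1: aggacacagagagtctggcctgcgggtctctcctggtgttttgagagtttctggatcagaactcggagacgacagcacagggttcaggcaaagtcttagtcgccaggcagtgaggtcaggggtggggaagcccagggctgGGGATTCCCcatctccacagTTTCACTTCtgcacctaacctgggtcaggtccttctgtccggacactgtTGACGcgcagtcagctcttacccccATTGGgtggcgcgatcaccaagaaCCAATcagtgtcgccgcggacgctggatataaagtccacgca
H2-D1: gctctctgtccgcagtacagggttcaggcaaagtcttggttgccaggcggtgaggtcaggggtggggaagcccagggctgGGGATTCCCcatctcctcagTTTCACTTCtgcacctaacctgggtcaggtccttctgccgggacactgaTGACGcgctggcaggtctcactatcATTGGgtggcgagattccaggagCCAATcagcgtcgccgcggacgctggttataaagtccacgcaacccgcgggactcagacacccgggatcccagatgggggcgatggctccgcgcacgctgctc
B2m: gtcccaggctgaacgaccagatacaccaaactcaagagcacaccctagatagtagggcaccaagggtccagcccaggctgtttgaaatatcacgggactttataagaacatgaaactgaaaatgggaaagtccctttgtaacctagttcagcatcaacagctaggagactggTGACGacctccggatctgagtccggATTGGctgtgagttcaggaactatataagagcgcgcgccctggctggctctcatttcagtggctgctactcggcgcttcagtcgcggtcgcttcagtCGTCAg
In both heavy chain windows the kappa B letters are followed after 11 bases by the interferon regulatory factor letters and, after a further 40 bases, by TGACG, and the longest identical stretch is 47 bases. Of 32851 RefSeq promoter windows of this length, 0.353% hold the kappa B letters, 7.52% the interferon regulatory factor letters, 8.30% TTCNNNGAA, 20.8% TGACG and 37.4% CCAAT. The B2m window holds TGACG 2 times and CCAAT 1 time and none of the longer strings. That says only that these exact letters are not in it, since other spellings or spacings of such sites were not searched for. The motifs were picked after the sequences were read, and a match is a description and not a bound site.

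H2-K1 stood at 939.8, 1454, 928 and 1204 CPM in the 4 lean tumors before therapy and at 385, 272, 130.1 and 170.4 CPM after ETS. In obese tumors it stood at 155, 133, 102 and 143 CPM before therapy and at 258, 109.7, 214 and 294 CPM after ETS. The lean groups did not overlap, whereas obese tumor 2 after ETS lay within the range before therapy. H2-K1 fell 4.72-fold in lean tumors (log2 fold change -2.24 ± 0.33, SE, n = 4 a group; edgeR, adjusted p = 1.30e-04). Its value in obese tumors was 0.72 ± 0.32 on the log2 scale (adjusted p = 0.0852). When 1 tumor was left out, it ran from 0.53 without obese tumor 4 after ETS (adjusted p = 0.207) to 0.94 without obese tumor 2 after ETS, which held muscle RNA (adjusted p = 0.0231), and only the latter was called. With limma-voom it was 0.39 (adjusted p = 0.381).

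H2-D1 stood at 1331, 1809, 1363 and 1631 CPM in lean tumors before therapy and at 509, 392, 180.4 and 216 CPM after ETS. The obese tumors held 141, 144, 122 and 129.9 CPM before therapy and 304, 159, 222 and 359 CPM after ETS. Neither host's groups overlapped, and lean tumors 1 and 2 were the higher pair after ETS, as for H2-K1. H2-D1 fell 4.73-fold in lean tumors (log2 fold change -2.24 ± 0.30, adjusted p = 5.80e-05) and rose 1.94-fold in obese tumors (0.96 ± 0.29, adjusted p = 0.0164).

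B2m, which every class I heavy chain needs to reach the surface, stood at 1284, 1785, 1579.8 and 1591 CPM in lean tumors before therapy and at 640.1, 484, 249.8 and 312 CPM after ETS. Values in obese tumors were 162, 161, 134 and 139 CPM before therapy and 337, 229.7, 236 and 392 CPM after ETS. No tumor of a group reached into the other group of the same host. B2m fell 3.70-fold in lean tumors (log2 fold change -1.89 ± 0.25, adjusted p = 5.71e-05) and rose 2.0-fold in obese tumors (1.0 ± 0.25, adjusted p = 0.00519). The lean minus the obese effect was -2.95 for H2-K1, -3.20 for H2-D1 and -2.89 for B2m on the log2 scale (edgeR, adjusted p = 5.09e-04, 1.29e-04 and 8.07e-05), and -3.60, -3.93 and -3.49 without the tumors with muscle RNA.

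Tap1 and Tap2 form the pump that moves peptides into the endoplasmic reticulum. Tap1 (Entrez 21354, chromosome 17, 34187556 to 34197225, plus strand) starts 225 bases from the start of Psmb9 (Entrez 16912, 34182030 to 34187330, minus strand), which encodes an inducible proteasome subunit and is read in the opposite direction. Their promoter windows share 275 bases, so that 1 window shows both; it is chr17:34187306-34187605 on the plus strand, with TGACG and CCAAT matches in capitals.
Tap1: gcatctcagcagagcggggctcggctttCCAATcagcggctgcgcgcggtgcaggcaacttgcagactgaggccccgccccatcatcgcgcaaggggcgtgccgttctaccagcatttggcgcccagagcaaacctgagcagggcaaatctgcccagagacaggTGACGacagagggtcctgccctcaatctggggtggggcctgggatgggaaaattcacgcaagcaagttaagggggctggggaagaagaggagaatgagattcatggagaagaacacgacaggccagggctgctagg
No kappa B, interferon regulatory factor or gamma-activated site letters were found in this window, which says only that these strings are not in it. Of the windows not shown, that of Psmb8 held TTCNNNGAA 1 time, that of Tapbp CCAAT 2 times and that of Psmb10 none of the 5 strings. Exons of Tap1 and Psmb9 overlap by 212 bases on opposite strands in GENCODE M21, and since the use of strand in counting is not stated, reads there cannot be assigned to one of them.

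Tap1 was at 254, 419.8, 343 and 454 CPM in lean tumors before therapy and fell to 66.1, 48.4, 26.8 and 23.2 CPM after ETS. In obese tumors it was at 8.14, 7.06, 2.0 and 2.24 CPM before therapy and at 25.0, 18.6, 21.7 and 36.7 CPM after ETS. Neither pair of groups overlapped, and the obese tumors before therapy fell into 2 at the upper end and 2 at the lower. The fall in lean tumors was 8.94-fold (log2 fold change -3.16 ± 0.45, adjusted p = 9.32e-05) and the rise in obese tumors 5.28-fold (2.40 ± 0.45, adjusted p = 8.83e-04).

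Tap2 (Entrez 21355, chromosome 17, 34204479 to 34216321), the other part of the pump, was at 89.1, 164, 131 and 181 CPM in lean tumors before therapy and at 22.5, 15.4, 8.35 and 8.22 CPM after ETS. Obese tumors held 4.78, 3.48, 1.95 and 1.87 CPM before therapy and 9.91, 5.56, 7.80 and 12.1 CPM after ETS. The groups of each host were apart, although obese tumors 1 before and 2 after ETS came close. Tap2 fell 10.4-fold in lean tumors (log2 fold change -3.37 ± 0.39, adjusted p = 1.74e-05) and rose 2.95-fold in obese tumors (1.56 ± 0.38, adjusted p = 0.00510). Exons of Gm15821 on the other strand cover 14.1% of the Tap2 exons.

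Tapbp (Entrez 21356, chromosome 17, 33919478 to 33929290), the tapasin that bridges the transporter and an empty heavy chain, was at 228, 387, 276 and 365 CPM in lean tumors before therapy and at 63.3, 55.4, 50.5 and 55.0 CPM after ETS. Counts in obese tumors were 30.7, 26.7, 12.6 and 15.0 CPM before therapy and 72.3, 57.4, 58.7 and 72.0 CPM after ETS. After ETS the tumors of both hosts were more alike for Tapbp than for any other of the 10 genes except Psmb10 in obese tumors, with a coefficient of variation of 9.49% in lean and 12.6% in obese tumors. Tapbp fell 5.60-fold in lean tumors (log2 fold change -2.49 ± 0.25, adjusted p = 6.12e-06) and rose 3.06-fold in obese tumors (1.62 ± 0.24, adjusted p = 1.87e-04). Exons of Tapbp overlap those of Zbtb22 on the same strand over 4.11% and Gm19412 on the other strand over 24.9% of their length, so some of its reads are uncertain. The difference of the effects, lean minus obese, was -5.56 for Tap1, -4.93 for Tap2 and -4.10 for Tapbp on the log2 scale (edgeR, adjusted p = 4.46e-05, 3.33e-05 and 1.03e-05).

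Psmb8 (Entrez 16913, chromosome 17, 34198195 to 34201454), the inducible counterpart of Psmb5, stood at 245, 346, 254 and 296 CPM in lean tumors before therapy and at 28.6, 18.4, 3.30 and 3.58 CPM after ETS. Obese tumors were at 2.51, 4.59, 1.89 and 0.828 CPM before therapy and at 14.2, 7.99, 8.28 and 18.1 CPM after ETS. Lean tumors after ETS were the most uneven of all groups for this gene, with a coefficient of variation of 91.4% and tumors 1 and 2 above tumors 3 and 4. Psmb8 fell 21.2-fold in lean tumors (log2 fold change -4.40 ± 0.65, adjusted p = 1.28e-04) and rose 4.99-fold in obese tumors (2.32 ± 0.63, adjusted p = 0.00946). Without the 5 tumors with muscle RNA, a choice made after seeing the data, the lean value was -6.17 and the obese value 2.50, and without lean tumor 1 after ETS the lean value was -5.12. Its exons overlap those of Gm20496 on the other strand over 14.7% of their length.

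Psmb9, the inducible counterpart of Psmb6, stood at 119.9, 172, 140.1 and 153 CPM in lean tumors before therapy and at 11.5, 7.03, 1.87 and 2.67 CPM after ETS, a fall of 25.4-fold (log2 fold change -4.66 ± 0.62, adjusted p = 5.85e-05). The lean value was -5.28 without lean tumor 1 after ETS and -5.84 without the 5 tumors with muscle RNA, so the order of Psmb8 and Psmb9 depended on the tumors used. Among obese tumors it read 2.49, 2.07, 0.484 and 0.458 CPM before therapy and 3.27, 1.68, 3.35 and 7.04 CPM after ETS. The obese groups overlapped through tumor 2 after ETS, and the value there was 1.51 ± 0.61 on the log2 scale (adjusted p = 0.0617). When 1 tumor was left out, the value ran from 1.05 without obese tumor 4 after ETS (adjusted p = 0.191) to 1.97 without obese tumor 1 before therapy (adjusted p = 0.0362), and it was called in the latter case and without obese tumor 2 after ETS (1.75, adjusted p = 0.0421).

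Psmb10 (Entrez 19171, chromosome 8, 105935728 to 105938392), the inducible counterpart of Psmb7, stood at 169.5, 254, 175 and 212 CPM in lean tumors before therapy and at 58.4, 63.9, 31.2 and 34.7 CPM after ETS. In the obese groups it was at 21.5, 26.2, 19.3 and 15.7 CPM before therapy and at 42.1, 43.8, 40.1 and 34.2 CPM after ETS. Groups of the same host did not overlap for Psmb10. It fell 4.31-fold in lean tumors (log2 fold change -2.11 ± 0.22, adjusted p = 9.68e-06) and rose 1.94-fold in obese tumors (0.95 ± 0.22, adjusted p = 0.00352). Of the inducible subunits it thus had the smallest fall. Lean minus obese, the effects differed by -6.72 for Psmb8, -6.17 for Psmb9 and -3.06 for Psmb10 on the log2 scale (edgeR, adjusted p = 1.62e-04, 2.17e-04 and 2.17e-05). For Psmb8 and Psmb9 this was -7.45 and -6.79 without lean tumor 1 after ETS and -8.68 and -7.61 without the tumors with muscle RNA.

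Nlrc5 (Entrez 434341, chromosome 8, 94434335 to 94527272), the transactivator of class I genes, stood at 88.4, 216, 229.9 and 202 CPM in lean tumors before therapy and at 23, 12.3, 6.96 and 5.85 CPM after ETS. It was at 4.27, 4.37, 1.37 and 0.775 CPM in obese tumors before therapy and at 4.25, 3.84, 13.4 and 11.8 CPM after ETS. In obese tumors the groups overlapped: tumors 1 and 2 were alike before and after ETS, and tumors 3 and 4 were the low pair before and the high pair after, although no label ties tumors with the same number to each other. Nlrc5 fell 15.3-fold in lean tumors (log2 fold change -3.94 ± 0.61, adjusted p = 1.80e-04). Its rise in obese tumors, 3.12-fold (1.64 ± 0.59, adjusted p = 0.0373), was the least firm of the 8 calls, since leaving out obese tumor 3 or 4 of either group gave an adjusted p of 0.106, 0.0985, 0.104 and 0.0796. Between hosts the effects of ETS differed by -5.58 on the log2 scale, lean minus obese (adjusted p = 4.10e-04). Without the tumors with muscle RNA the lean value was -4.64 and the difference -6.55.

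**Figure D2:**
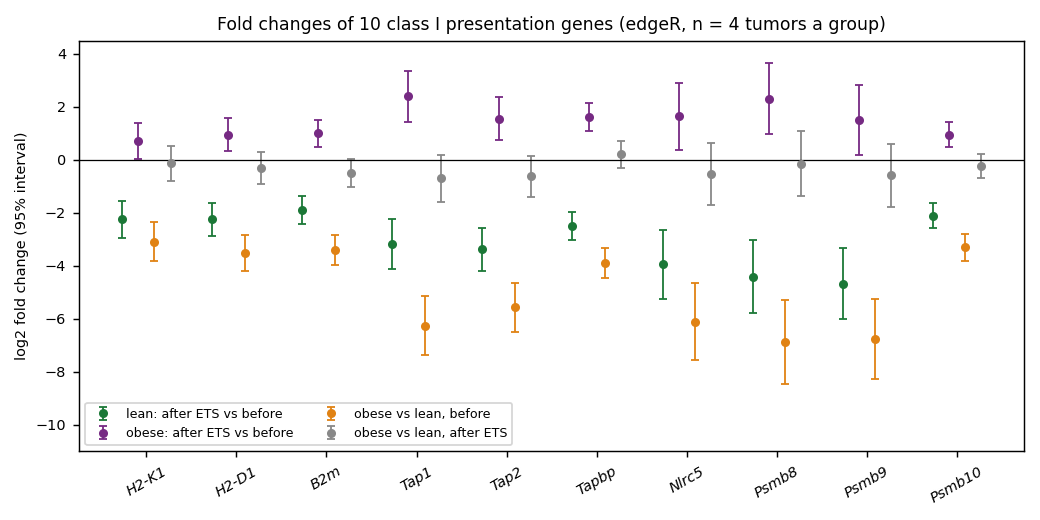
Points are log2 fold changes of 10 class I presentation genes from edgeR with their 95% intervals, for ETS in lean tumors, ETS in obese tumors, and obese against lean tumors before therapy and after ETS, with 4 tumors a group. The lean and before-therapy intervals lie below 0 for all 10 genes, the obese intervals lie above 0 and the intervals after ETS include 0.

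Before therapy every lean tumor was above every obese tumor for each of the 10 genes. How many of all tested genes had groups apart in this way was not counted, so this only describes the 10. The heavy and light chains, which were the most abundant, differed least together with Psmb10: H2-K1 was 8.48-fold, Psmb10 9.80-fold, B2m 10.5-fold and H2-D1 11.4-fold lower in obese tumors. Tapbp was 14.8-fold lower (log2 difference -3.89 ± 0.26, edgeR, adjusted p = 2.12e-07). The transporter genes and the transactivator differed more, with Tap2 47.0-fold, Nlrc5 69.0-fold and Tap1 76.2-fold lower. Psmb9 was 108-fold and Psmb8 117-fold lower in obese tumors (log2 differences -6.76 ± 0.70 and -6.87 ± 0.74, adjusted p = 7.94e-06 and 1.13e-05). Melanocyte markers were also lower in obese tumors before therapy, with a summed level of 9129 to 13433 TPM against 17979 to 22038 TPM and 4 of 8 markers called lower. Over all tested genes 12.9% were called lower there.

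After ETS the tumors of both hosts overlapped for all 10 genes, and overlap over all tested genes was not counted. The differences, obese against lean, ran from -0.69 ± 0.42 on the log2 scale for Tap1 to 0.22 ± 0.24 for Tapbp. For Psmb8 the 95% interval ran from -1.37 to 1.08, and for B2m from -1.02 to 0.02. Without the 5 tumors with muscle RNA, the 9 values that were below 0 lay above 0, from 0.14 for Tap1 to 1.96 for Psmb8, and 0 were called.

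On the TPM scale, which divides by length and allows genes to be compared, B2m was the most abundant of the 10 in every group, with medians of 4173 TPM in lean tumors before therapy, 731 after ETS, 341 in obese tumors before therapy and 608 after ETS. H2-D1 (1944 TPM) and H2-K1 (1442 TPM) followed in lean tumors before therapy, and Psmb8 (507 TPM), Psmb9 (370.5 TPM), Psmb10 (343 TPM), Tap1 (291 TPM), Tapbp (263 TPM) and Tap2 (133 TPM) came next. The TPM ranges of H2-D1 and H2-K1 overlapped, and so did those of neighbours in that order from Psmb8 to Tapbp. Nlrc5 was lowest at 61.4 TPM. Obese tumors before therapy had another order: Psmb10 (31.7 TPM) and Tapbp (15.0 TPM) came after the heavy chains, and Psmb8 (3.53 TPM), Tap1 (3.15 TPM), Psmb9 (2.94 TPM), Tap2 (2.18 TPM) and Nlrc5 (0.735 TPM) were lowest, with overlapping ranges for all neighbours among them except Tap2 and Nlrc5.

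A ratio of a pair of genes in the same tumor does not depend on the scaling between libraries. The inducible subunit Psmb8 made up 1.12 to 2.20 times the TPM of its constitutive counterpart Psmb5 in lean tumors before therapy and 0.0179 to 0.128 times after ETS. In obese tumors the ratio was 0.00531 to 0.0281 before therapy and 0.0404 to 0.125 after ETS. Psmb9 to Psmb6 went from 0.773 to 1.24 before therapy to 0.0137 to 0.0686 after ETS in lean tumors and from 0.00322 to 0.0175 to 0.0106 to 0.0558 in obese tumors. Psmb10 to Psmb7 went from 0.663 to 1.13 to 0.136 to 0.236 in lean tumors, and from 0.0598 to 0.0991 to 0.165 to 0.188 in obese tumors. Of these 6 changes after ETS, 5 had groups that did not overlap, and Psmb9 to Psmb6 in obese tumors overlapped (exact permutation test, two-sided, p = 0.114). The constitutive subunits themselves were not called for ETS: Psmb5 changed by 0.35 ± 0.16 on the log2 scale in lean and 0.07 ± 0.16 in obese tumors, Psmb6 by 0.29 ± 0.13 and -0.01 ± 0.13, and Psmb7 by 0.14 ± 0.09 and -0.24 ± 0.09.

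The pairing partners moved with smaller differences. B2m to the sum of both heavy chains lay at 1.09 to 1.37 in lean tumors before therapy and at 1.42 to 1.61 after ETS, groups that did not overlap, and at 1.02 to 1.19 and 1.08 to 1.70 in obese tumors, groups that did. Tap1 to Tap2 lay at 2.13 to 2.41 in lean tumors before therapy, 2.39 to 2.71 after ETS, 0.867 to 1.72 in obese tumors before therapy and 2.13 to 2.84 after ETS. The obese tumors before therapy thus had less Tap1 per Tap2 than any other tumor. With 4 tumors against 4 the exact permutation test cannot give a p below 0.0286. Of 25 comparisons of 5 ratios, 15 had an unadjusted p under 0.05 and 0 had an adjusted p under 0.05, the lowest adjusted p being 0.0510, so no ratio passed the correction.

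**Figure D3:**
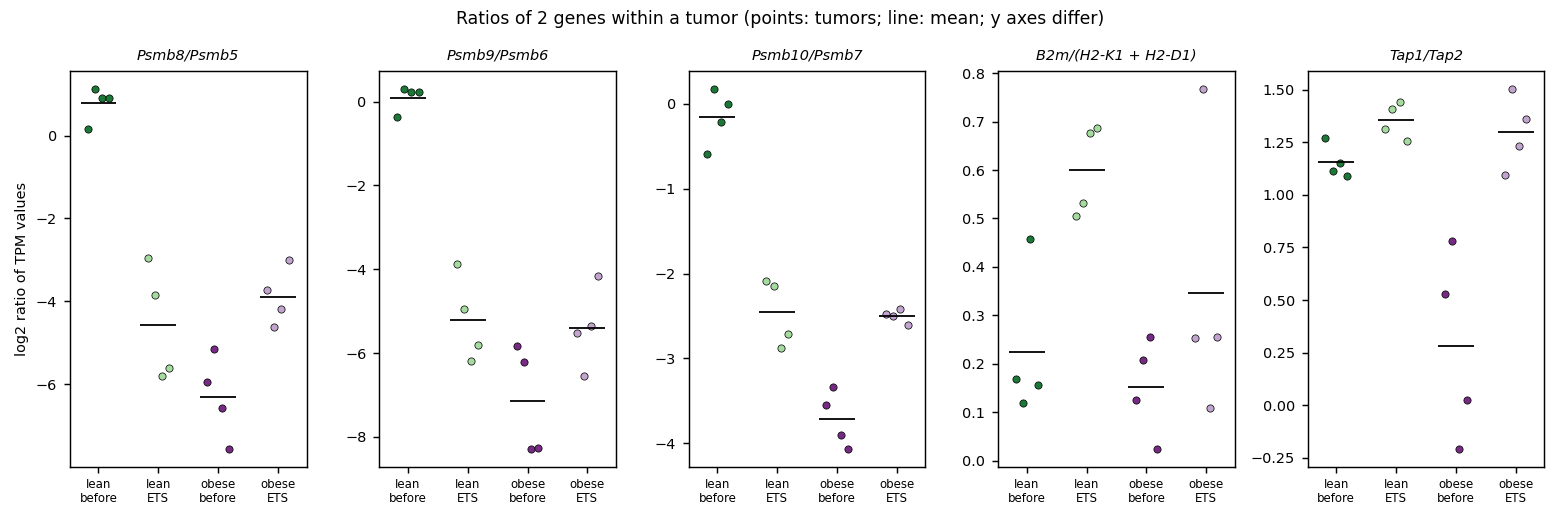
Each panel plots the log2 ratio of TPM values of 2 genes, or of B2m to the summed heavy chains, in 16 tumors, with a line at the mean of the 4 tumors of a group and y axes that differ. The inducible to constitutive ratios are highest in the lean tumors before therapy, and Tap1/Tap2 is lowest in the obese tumors before therapy.

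A list of 78 further genes of the pathway, of which 77 were in the data and 59 had reads in every tumor, gave the setting. In lean tumors 28 of the 59 fell and 3 rose after ETS, with a median log2 fold change of -0.35, where 22.8% of all tested genes fell and 21.0% rose. In obese tumors 28 rose and 10 fell, with a median of 0.28, where 21.2% of all tested genes rose and 19.0% fell. Before therapy 31 were lower and 3 higher in obese tumors, against 12.9% and 13.5% of all tested genes. After ETS 0 were lower and 2 higher, a count that ran from 0 to 7 under the alternatives, against 2.30% and 3.28% of all tested genes.

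Among 12 other class I and class I-like heavy chains that could be tested, 8 fell and 2 rose in lean tumors, and in obese tumors 11 rose. The shares over all tested genes were 22.8% and 21.0% in lean tumors and 21.2% in obese tumors. The lowest in lean tumors was H2-M3, which presents formylated peptides (log2 fold change -3.52 ± 0.47, adjusted p = 6.14e-05), and it rose in obese tumors (1.77 ± 0.47, adjusted p = 0.00838). The highest in lean tumors was Hfe, which takes part in iron sensing and not in peptide display, and it rose in both hosts (1.05 ± 0.16 and 0.76 ± 0.16, adjusted p = 1.89e-04 and 0.00221). H2-Q6 had the largest rise in obese tumors (2.65 ± 0.57, adjusted p = 0.00236) and H2-Q4 the smallest value there (0.39 ± 0.30, adjusted p = 0.314). Of the windows of a read's length in H2-Q6 transcripts, 10.5% also occur in other genes, foremost H2-Q7, so its counts are uncertain.

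In the loading and trimming list, 3 of 11 genes fell and 0 rose in lean tumors, and in obese tumors 3 rose and 1 fell, counts to be read against the 22.8% of all tested genes that fell in lean and the 21.2% that rose in obese tumors. Tapbpl, a tapasin-related protein that edits peptides, had the lowest value in lean tumors (-2.66 ± 0.27, adjusted p = 7.32e-06) and the highest in obese tumors (1.10 ± 0.26, adjusted p = 0.00453). Lap3, a cytosolic aminopeptidase, fell in both (-1.21 ± 0.10 and -0.35 ± 0.10, adjusted p = 1.56e-06 and 0.0117). Thop1, a peptidase that destroys peptides in the cytosol, had the highest value in lean tumors, which was not called (0.35 ± 0.17, adjusted p = 0.0938). In the proteasome list 2 of 11 genes fell and 1 rose in lean tumors, and in obese tumors 3 rose and 3 fell, against the same shares of all tested genes. Psme2, part of the activator cap that interferon gamma induces, fell in lean tumors (-1.62 ± 0.19, adjusted p = 2.26e-05) and rose in those of obese hosts (0.73 ± 0.19, adjusted p = 0.00693). Psmf1, a proteasome inhibitor, rose in both (0.40 ± 0.11 and 0.58 ± 0.11, adjusted p = 0.0101 and 0.00104), and Psmg1, an assembly chaperone, fell in obese tumors (-0.40 ± 0.12, adjusted p = 0.0167).

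Of 23 genes of the interferon signal and of class I transcription factors, 13 fell and 0 rose in lean tumors, whereas the obese tumors had 9 that rose and 6 that fell. Irf8, a factor of myeloid cells that interferon gamma raises, had the lowest value in lean tumors (-3.58 ± 0.46, adjusted p = 4.49e-05) and the highest in obese tumors (1.92 ± 0.45, adjusted p = 0.00386). Creb1, which binds the cyclic AMP response element, fell in both (-0.64 ± 0.09 and -0.85 ± 0.09, adjusted p = 1.22e-04 and 2.86e-05). Rela, a kappa B factor, had the highest value in lean tumors (0.24 ± 0.11, adjusted p = 0.0787). Irf1, a factor that interferon gamma induces, was picked after its values were seen: it fell in lean tumors (-3.46 ± 0.28, adjusted p = 1.47e-06) with 0.36 ± 0.26 in obese tumors (adjusted p = 0.294). Of the receptors that read class I, 2 of 11 had reads in every tumor. Pirb and Lilrb4a, inhibitory receptors of myeloid cells, fell in lean tumors (-2.91 ± 0.73 and -2.71 ± 0.46, adjusted p = 0.00536 and 3.49e-04) and rose in those of obese hosts (2.91 ± 0.74 and 1.91 ± 0.45, adjusted p = 0.00645 and 0.00396).

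**Figure D4:**
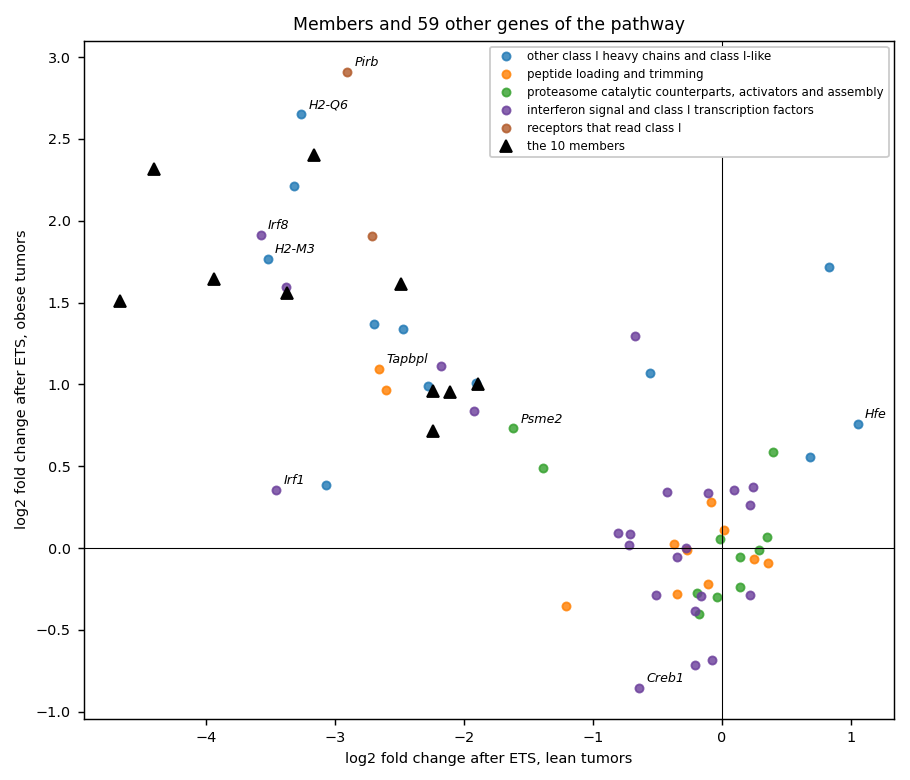
Each point is a gene placed by its log2 fold change after ETS in lean tumors (x axis) and in obese tumors (y axis), with the 10 members as triangles and 59 further genes of the pathway as circles coloured by list. All 10 members lie in the upper left of the plot, lower in lean and higher in obese tumors, and so do H2-M3, H2-Q6, Tapbpl, Psme2, Irf8 and Pirb.

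Ifng, the gene for interferon gamma, was too sparse to be tested. It had 83, 176, 65 and 147 counts in the lean tumors before therapy, which is 1.88 to 4.90 TPM, and 4 counts in 1 tumor of each other group, with 0 in the other 9 tumors. Markers of T cells and natural killer cells, which make it, were highest in the same tumors. The 7 T cell markers summed to 28.9 to 59.1 TPM in lean tumors before therapy, and to 0.0202 to 1.81 TPM after ETS, 0.0716 to 1.67 TPM in obese tumors before therapy and 0.589 to 2.41 TPM after ETS, with Cd3e at 0 in all obese tumors before therapy. The 6 natural killer cell markers summed to 45.3 to 89.4 TPM in lean tumors before therapy, 0.459 to 1.65 TPM after ETS, 0 to 0.752 TPM in obese tumors before therapy and 0.746 to 5.37 TPM after ETS, with Ncr1 at 0 in all obese tumors before therapy. None of these 13 markers had reads in every tumor, so none was tested.

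Macrophage markers fell in lean and rose in those of obese hosts after ETS. The 10 markers summed to 443.9 to 1244 TPM in lean tumors before therapy and 51.2 to 342 TPM after ETS, with 7 of 9 tested markers called lower, and to 29.3 to 194 TPM in obese tumors before therapy and 299.5 to 877 TPM after ETS, with 8 of 9 called higher. The shares over all tested genes were 22.8% lower in lean and 21.2% higher in obese tumors. Lean tumors 1 and 2 after ETS, which held the higher Psmb8 and Psmb9, had summed macrophage markers of 297 and 342 TPM against 107 and 51.2 TPM in tumors 3 and 4. Macrophages were not alone in this split. Tumors 1 and 2 also held the muscle RNA, and their adipocyte markers summed to 41.0 and 41.7 TPM against 20.4 and 19.5 TPM. B cell markers went the other way, with 2.76 and 3.27 TPM against 3.75 and 4.36 TPM. The 6 dendritic cell markers summed to 13.7 to 28.4 TPM in lean tumors before therapy, 2.87 to 5.11 TPM after ETS, 4.64 to 8.43 TPM in obese tumors before therapy and 3.88 to 9.19 TPM after ETS. Fibroblast markers summed to 147 to 407 TPM, 19.0 to 118 TPM, 22.2 to 133 TPM and 148 to 1183 TPM in the same order. The part of these cells in the changes of the 10 genes was not tested.

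**Figure D5:**
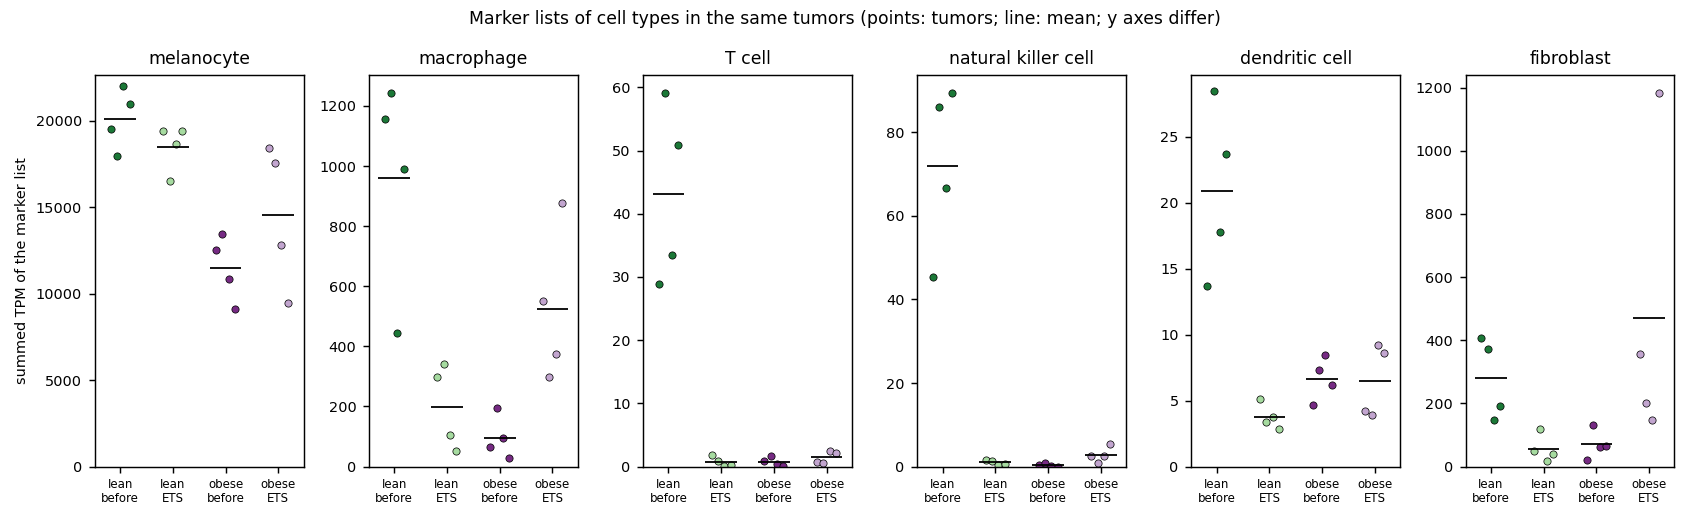
Each panel plots the summed TPM of the markers of a cell type in 16 tumors, with a line at the mean of 4 tumors and y axes that start at 0 and differ. T cell, natural killer cell and dendritic cell sums stand high in the lean tumors before therapy only, and macrophage sums are also raised in the obese tumors after ETS.

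The 10 genes varied together. Over 16 tumors the 45 pairs of members had Pearson correlations of log2 CPM from 0.921 to 0.992, and over the 12 tumors outside the lean group before therapy from 0.647 to 0.981. The points share libraries and depth, and the lean tumors before therapy stand apart from the others. The genes most like the mean of the 10, out of 13303 compared, were Ifi47, an interferon-induced GTPase (r = 0.996), H2-T10, a non-classical class I gene (r = 0.992), Il18bp, which binds interleukin-18 (r = 0.992), Serpinb9, an inhibitor of granzyme B (r = 0.987), and H2-Q1, another class I gene (r = 0.987). Outside the lean group before therapy these values were 0.985, 0.960, 0.962, 0.941 and 0.929.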

How the data were processed

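RNA of 16 B16F10 tumors was measured by stranded mRNA sequencing with paired ends. Per the labels and methods, the authors trimmed reads with Trimmomatic, aligned them to mm10 with HISAT2 2.1.0 and quantified genes with StringTie 2.1.3b. Counts as deposited are whole, not normalized, and derived from coverage. The deposited TPM values are divided by length and were used for levels, ratios and marker sums. Use of strand in the counting is not given in the sources used here. The 16 columns of FPKM were not used.

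Of 45777 genes, 29568 that were at 0 in 1 tumor or more were left out, as the methods state. Counts were scaled by TMM and tested with edgeR's quasi-likelihood test (edgeR 4.0.16, R 4.3.3) in a fit of all 16 tumors with a mean for each group, which then share an estimate of the spread, with Benjamini-Hochberg adjustment over 16209 genes. The methods used edgeR's exact test after adding 1. It was an alternative here, with DESeq2 1.42.0, limma 3.58.1 (voom with sample weights, and log2(TPM + 1)), other filters and scaling, a replicate block and leaving out tumors. A fit without 5 tumors with muscle RNA was added after seeing the data. SEs come from the fold change and the F statistic. CPM per tumor uses TMM-scaled library sizes; correlations used log2 CPM with a prior count of 2. Ratios of TPM were tested by exact two-sided permutation, adjusted over 25 comparisons. The test was checked on simulated data. Samples were grouped by their titles.

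Members and lists were chosen with earlier results of these data known. Named beside the members are, by rule, the genes with the highest and lowest log2 fold change of each pathway list in each host, the genes of the ratios and the 5 genes with the highest correlation to the members among those with a mean of at least 1 CPM. Promoter windows come from RefSeq, which had them for 8 of the 10 genes, and exon overlaps and shared windows from GENCODE M21, both on GRCm38.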

Additional observations from a re-analysis of the deposited data

Results flagged for a closer look

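Of 60 groups of 4 values looked at, the 10 genes and 5 ratios in each group, 2 held a tumor far from the other 3, and chance gives about 1 in 20. Both were ratios in lean tumors before therapy. For Psmb9/Psmb6, tumor 1 lay at -0.37 on the log2 scale, below the others, and for B2m to the summed heavy chains tumor 3 lay at 0.46, above the others.

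For each of the 10 genes, the effect of ETS in lean tumors differed from that in obese tumors by the test of the difference itself (edgeR, adjusted p under 0.05). The differences of the log2 fold changes, lean minus obese, were -2.95 for H2-K1, -3.20 for H2-D1, -2.89 for B2m, -5.56 for Tap1, -4.93 for Tap2, -4.10 for Tapbp, -5.58 for Nlrc5, -6.72 for Psmb8, -6.17 for Psmb9 and -3.06 for Psmb10. In lean tumors 10 of 10 genes and in obese tumors 0 of 10 had a log2 fold change below 0, although H2-K1 and Psmb9 were not called in obese tumors. The medians over all tested genes were -0.015 in lean and 0.0066 in obese tumors. T cell and natural killer cell marker sums and Ifng were high in the lean tumors before therapy, which enter each of these differences, and their part was not tested.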

How the results depend on the processing

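The counts of members called in the 5 comparisons stayed within 1.5 times their value under every alternative: 10 of 10 lower in lean tumors, before therapy and in the difference of effects, 0 after ETS, and 6 (limma-voom) to 10 (DESeq2, and without the 5 tumors with muscle RNA) higher in obese tumors, 7 to 10 when 1 tumor was left out. For the 0 after ETS, the fit without the tumors with muscle RNA called only 1 of 16546 tested genes higher and 1 lower. Of 960 values of single members, 919 kept direction and side of the threshold, 10 lost a call, 9 gained one and 22 turned direction. The lost calls were all in obese tumors: H2-D1 with limma-voom (adjusted p = 0.0731) and Nlrc5 with limma-voom (0.130), log2(TPM + 1) (0.143), no filter (0.0578), only the groups compared (0.0694), 4 left-out tumors and the replicate block (1.76, adjusted p = 0.0512). Psmb9 was called with the replicate block (1.70, adjusted p = 0.0426), and the block changed no other call of a member. Deviations from the group means had a median correlation of 0.073 for tumors with the same number and -0.040 for different numbers. The 24 same-number pairs ran from -0.11 to 0.45, with 11 over 0.1, and 5 of 16 tumors matched their own number best. Over all tested genes the block gave 882 higher and 801 lower in obese tumors after ETS, in place of 531 and 373. No label says what the numbers mark, and they were not taken as pairs in the main fit.

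All turns of direction were in uncalled values of the difference between hosts after ETS or, for a ratio, before therapy. After ETS, log2(TPM + 1) gave 0.048 for H2-K1 and 0.44 for Psmb8, limma-voom 0.76 for Psmb8 and 0.090 for Psmb10, and the replicate block 0.20 for Psmb8. Without the tumors with muscle RNA the values were 0.75 for H2-K1, 0.56 for H2-D1, 0.18 for B2m, 0.14 for Tap1, 0.25 for Tap2, 0.61 for Nlrc5, 1.96 for Psmb8, 0.99 for Psmb9 and 0.23 for Psmb10. Leaving out 1 tumor gave -0.34 to 0.20 for H2-K1, -0.85 to 0.012 for Nlrc5, -0.47 to 0.56 for Psmb8, -1.04 to 0.019 for Psmb9, -0.61 to 0.25 for Psmb9/Psmb6, -0.19 to 0.079 for Psmb10/Psmb7, -0.12 to 0.012 for Tap1/Tap2 and, before therapy, -0.11 to 0.0047 for B2m to the heavy chains. The cause was not tested. Of 25 ratio comparisons, 15 in place of 0 passed with 1 TPM added and without obese tumor 1 or 2 before therapy, and 0 to 15 when 1 tumor was left out. The TPM scale shifted the median of all genes by -0.28 in lean tumors, where 46 of 59 further pathway genes were then lower and 1 higher in place of 28 and 3, and relative to that shift all 10 members remained lower.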
